A study of Mus musculus with 16 samples.

Results

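Immediate early genes are switched on within minutes of a stimulus without new protein being made, and most of their mRNAs are short-lived. The set described here holds 10 such genes and stress-induced relatives, Jun, Junb, Jund, Fos, Egr1, Ier2, Zfp36, Zfp36l1, Gadd45g and Ddit4, out of 8284 genes named in lists of N6-methyladenosine (m6A) peaks from mouse liver. The members were selected on the presence, folds and positions of their peaks in these same lists, so these values are given as a description, with no test. Every list row carrying one of these names was taken, which gave 83 of 28297 peaks, and every member had at least 1 peak.

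The study mapped m6A in the livers of male mice by immunoprecipitation of fragmented RNA with an anti-m6A antibody (MeRIP-seq), in a series that concerns RPN11, a proteasome subunit that removes ubiquitin, in fatty liver. It compared 4 db/db mice, which carry a defective leptin receptor and become obese and diabetic, with 4 lean mice labelled C57BL/6. No treatment was named, and neither the age of the mice nor the background strain of the db/db mice was given in the sources used here. Each mouse had an immunoprecipitated and an input library, and 1 deposited peak list was used per mouse.

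m6A is written on nuclear RNA by the Mettl3 and Mettl14 complex and is best known from the surroundings of stop codons and from 3′ untranslated regions, where reader proteins of the Ythdf family can shorten the life of the mRNA. Antibodies to m6A also bind m6Am, a related mark on the first transcribed base next to the cap when that base is an adenosine. Which of these marks lay under any peak here was not tested. Jun family proteins pair with Fos family proteins to form the transcription factor AP-1, and the other members cover a zinc finger transcription factor (Egr1), mRNA decay (Zfp36, Zfp36l1) and stress signalling (Gadd45g, Ddit4).

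The lists held between 2475 and 4807 peaks, with a median fold enrichment between 9.69 and 13.0 and a median length between 53 and 88 bases. Fold enrichment is the authors' own value and holds within its list, so that folds of several mice side by side are a description and no measure of a change between them. A score of -10 times the log10 of the p-value stands beside it and is read in the same way. Sequencing depth was unknown. Of 16 hepatocyte markers 4 had any peak, with none for Alb, Apob or Cps1, and of the 24 markers of other liver cells 19 had one, so the lists, which show methylated RNA and not expression levels, could not check the tissue label by its main transcripts.

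The 10 genes fell into 3 groups by how often they were seen. Jun, Jund, Gadd45g and Zfp36 had a peak in all 8 mice, as did 3.6% of all genes. Egr1 had one in 6 mice, Fos in 5 and Ier2 in 4. Zfp36l1 and Ddit4 had one in 2 mice each, and Junb in 1. The median member was seen in 5.5 mice and the median gene of all lists in 2.

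The number of members with a peak was 8, 7, 6 and 7 in db/db mice 1 to 4 and 7, 6, 4 and 7 in lean mice 1 to 4. The means were 7 ± 0.816 and 6 ± 1.41 (SD, n = 4 each), and the ranges overlapped. Peaks in these genes numbered 13, 11, 14 and 10 in the db/db mice and 10, 11, 5 and 9 in the lean mice, or 12 ± 1.83 and 8.75 ± 2.63 (SD, n = 4 each), and the ranges overlapped again. The db/db lists were also longer on average, with 3882 ± 848 peaks against 3192 ± 833 (SD, n = 4 each), and these ranges overlapped as well. As a share of its list, the members held 0.270%, 0.389%, 0.385% and 0.235% of peaks in the db/db mice and 0.228%, 0.368%, 0.202% and 0.309% in the lean mice. With every list cut to 2475 peaks, the difference in the number of member peaks fell from 3.25 to 0.75.

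**Figure D1:**
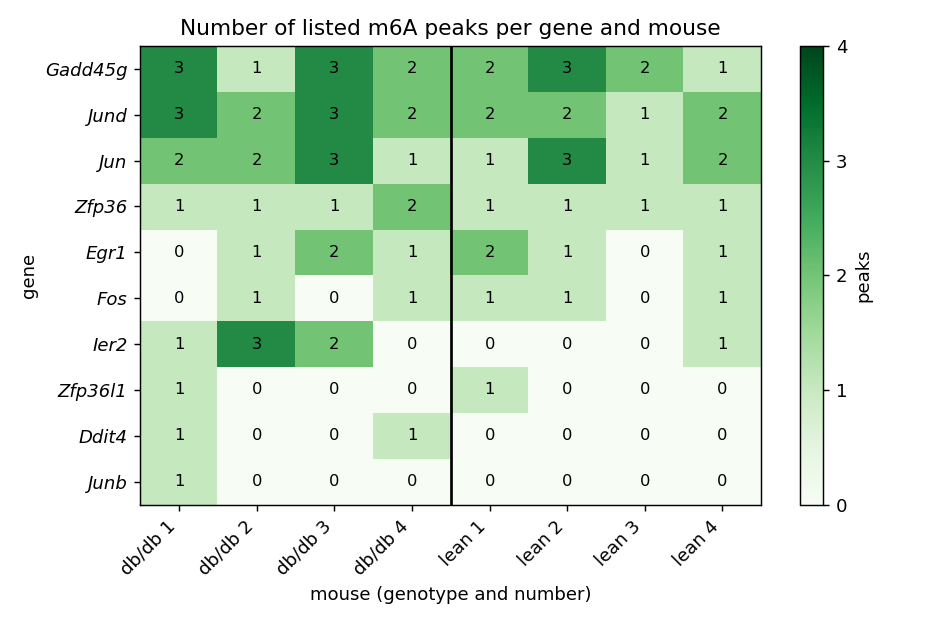
Number of listed m6A peaks (colour and digit) for each of the 10 genes (vertical axis) in each of the 8 mice (horizontal axis), with db/db mice left of the black line and lean mice right of it. The top 4 genes have a peak in every mouse, and the single Junb peak is in db/db mouse 1.

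No member split fully by genotype, with a peak in the 4 mice of one kind and in none of the other, as did 0.205% of all genes towards db/db and 0.133% towards lean. The same held for single regions of the members, against 0.0725% of all regions towards db/db and 0.0948% towards lean. More db/db than lean mice had a peak in Junb (1 against 0), Ddit4 (2 against 0) and Ier2 (3 against 1), that is in 3 of 10 members, and 45.3% of all genes leaned this way. Fos, with 2 db/db and 3 lean mice, was the only member seen in more lean mice, a direction found in 32.3% of all genes. The other 6 members were seen in as many mice of each genotype, against 22.5% of all genes. These shares are not alike in kind. Jun, Jund, Gadd45g and Zfp36, with a peak in all 8 mice, have equal counts of necessity. The 38.5% of all genes seen in 1 mouse only cannot have them. Over all 8284 genes, 0 passed Fisher's exact test of presence after Benjamini-Hochberg adjustment, and 28 had an unadjusted p under 0.05. At 4 against 4 mice that p cannot fall below 0.0286, and the 28 genes at this floor were too few for any to pass the adjustment. The count of 0 therefore says nothing on whether presence differed. In whole liver, a change in the number of cells that make a transcript and a change in its amount per cell cannot be told apart, and neither can be told from a change in methylation where a list holds only called peaks.

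By position, the 83 peaks formed 25 regions, a region being peaks of any mice that share at least 1 base within a gene. Of these, 12 had a peak in 2 or more mice, against 23.4% of the 17936 regions of all genes, and 6 had one in 7 or more mice, against 2.38%. The remaining 13 were seen in 1 mouse each. Of the 6 regions in 7 or more mice, those of Jun, Jund and Gadd45g in the far part of the gene were broad or lay at its end, those of Zfp36 and Gadd45g lay at the annotated start, and a second one of Jund was a narrow stretch in between. Positions below count along the genome from the annotated start as base 1 (RefSeq, GRCm38.p6, with the coordinates of mm10), and include introns where a gene has them. For Egr1 and Ier2 they count from the lower-coordinate bound of the gene. No peak inside the bounds of a member was named for another gene, and no other annotated gene overlapped a member.

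**Figure D2:**
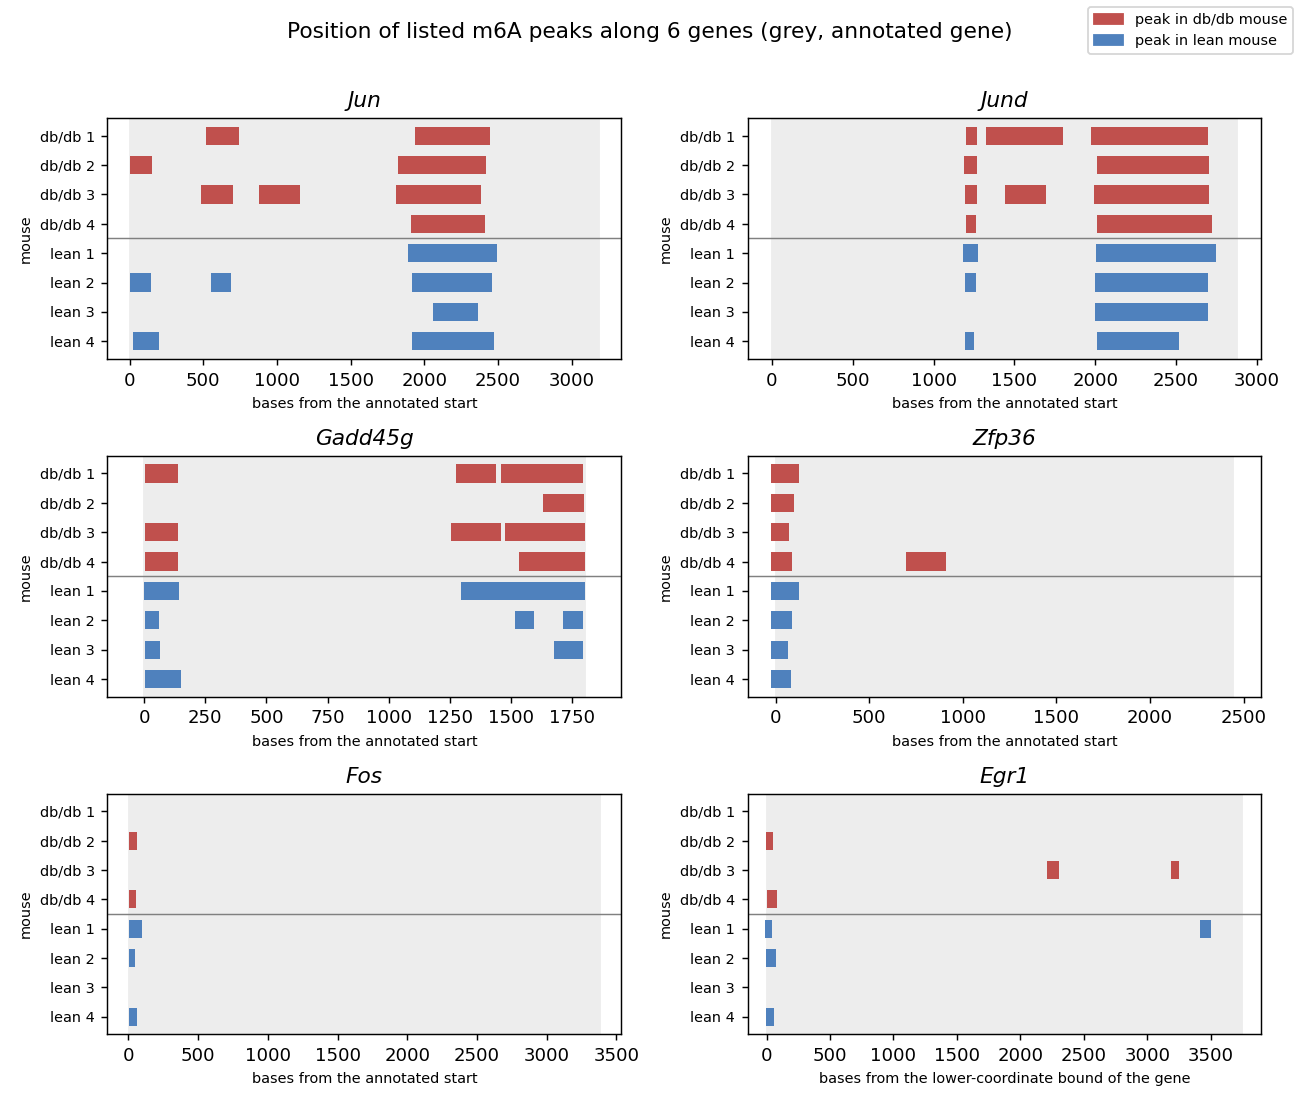
Position of every listed peak along Jun, Jund, Gadd45g, Zfp36, Fos and Egr1, in bases from the annotated start (for Egr1, from the lower-coordinate bound), with 1 row per mouse, db/db in red, lean in blue and the annotated gene in grey. The broad far regions of Jun and Jund and the start region of Zfp36 are filled in all 8 rows, and the Fos start and the low-coordinate end of Egr1 in the same 5 rows.

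Jun encodes the c-Jun subunit of AP-1 and is a gene without introns (gene ID 16476, chromosome 4, 95049036 to 95052222, minus strand). Its main region lay at chr4:95049732-95050417, bases 1806 to 2491, ending 696 bases before the end of the gene. The fold there was 40.8, 12.2, 25.8 and 16.4 in db/db mice 1 to 4 and 19.2, 32.0, 40.3 and 15.0 in lean mice 1 to 4. Both genotypes covered nearly the same range, from 12.2 to 40.8. The peaks were 304 to 602 bases long, and each stood at or above the 97.0th percentile of its list by length. All 8 stood at or above the 95.4th percentile of their list by score. The score was 3100 in lean mouse 1, a value that between 50 and 68 peaks per list shared. Other, smaller Jun regions stood closer to the start. Bases 1 to 200 had a peak in db/db mouse 2 (fold 8.82), lean mouse 2 (21.4) and lean mouse 4 (4.63). Bases 485 to 740 had one in db/db mice 1 and 3 (6.51 and 9.74) and lean mouse 2 (9.56). Bases 877 to 1157 had one in db/db mouse 3 (6.93).

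Jund, the gene of the AP-1 subunit JunD (gene ID 16478, chromosome 8, 70697739 to 70700616, plus strand), carried the longest peaks of the set. At chr8:70699712-70700482, bases 1974 to 2744, the fold was 21.7, 8.83, 14.6 and 8.18 in db/db mice 1 to 4 and 17.0, 11.6, 15.2 and 8.68 in lean mice 1 to 4, so that the genotypes overlapped. These peaks were 506 to 739 bases long, at or above the 99.3rd percentile of their lists by length, and the region ended 134 bases before the end of the gene. A second region at chr8:70698920-70699010, bases 1182 to 1272, was narrow, with peaks of 56 to 91 bases. It was seen in all mice but lean mouse 3. Its fold was 7.14, 31.5, 13.7 and 18.6 in db/db mice 1 to 4 and 9.60, 16.5 and 16.5 in lean mice 1, 2 and 4. Between them, bases 1325 to 1798 held peaks of db/db mice 1 and 3 (10.5 and 5.38) and none of a lean mouse. No Jund peak lay over the annotated start.

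Junb, the third Jun family gene (gene ID 16477, chromosome 8, 84976909 to 84978748), had a single peak, in db/db mouse 1, at bases 366 to 482. Its fold was 5.93 and its score 52.9, close to the lowest score listed, 50. Thus 3 related genes of the same factor ran from 17 peaks (Jund) and 15 (Jun) to 1 (Junb), and the part of mRNA level in that order was not tested.

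Fos, the partner of Jun in AP-1 (gene ID 14281, chromosome 12, 85473890 to 85477274, plus strand), had peaks at its start alone. All 5 began on the annotated first base, 85473890, and ended between bases 44 and 97. The fold was 27.4 and 23.8 in db/db mice 2 and 4 and 45.5, 19.4 and 48.0 in lean mice 1, 2 and 4, with no peak in db/db mice 1 and 3 or lean mouse 3. By percentile of folds in its own list, the peak stood lowest in lean mouse 2 (83.0th) and highest in lean mouse 1 (97.4th). It was above the middle of the list in every mouse that had the peak.

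Egr1 encodes a zinc finger transcription factor (gene ID 13653, chromosome 18, 34861207 to 34864956). Its recurrent region was at chr18:34861194-34861290, from 13 bases outside the lower bound of the gene to base 84. The fold there was 22.9 and 15.2 in db/db mice 2 and 4 and 8.40, 21.1 and 63.4 in lean mice 1, 2 and 4. These were the same 5 mice in which Fos had its peak. Of the 303 regions of all genes seen in exactly 5 mice, 6 were seen in these 5, the Fos and Egr1 regions among them. Egr1 had 3 further regions of 1 mouse each, at bases 2206 to 2301 and 3189 to 3247 in db/db mouse 3 and at bases 3418 to 3500 in lean mouse 1, with folds of 8.12, 9.64 and 10.8.

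Ier2, which encodes a nuclear immediate early protein (gene ID 15936, chromosome 8, 84661331 to 84662852), had 7 weak peaks. They lay in db/db mice 1, 2 and 3 and in lean mouse 4, with folds of 5.60 to 11.0 and no score above 99.7. The best shared region, chr8:84661476-84661776, had a peak in db/db mouse 1 (fold 7.19), db/db mouse 2 (10.4 and 8.53) and lean mouse 4 (5.68). With a p-value of at most 1e-10 no Ier2 peak was left in any mouse.

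Zfp36 encodes tristetraprolin, which binds AU-rich elements and hastens the decay of inflammatory mRNAs (gene ID 22695, chromosome 7, 28376784 to 28379228, minus strand). All 8 mice had a peak at chr7:28379107-28379255, and all 8 peaks ended on the same upstream base, 28379255, which is 27 bases before the RefSeq start. They reached to between bases 66 and 122. The fold was 11.0, 7.86, 15.1 and 14.1 in db/db mice 1 to 4 and 21.0, 27.1, 15.3 and 7.98 in lean mice 1 to 4. The genotypes overlapped, with the lowest folds in db/db mouse 2 and lean mouse 4. Of the 937 regions of all genes with a peak in 5 or more mice, 15.0% had an edge common to all peaks, on either side and anywhere in the gene. How peak edges were set against transcript ends was not given in the sources used here. Only db/db mouse 4 had a second Zfp36 peak, at bases 697 to 910 (fold 6.32).

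Zfp36l1, a relative of Zfp36 that also promotes mRNA decay (gene ID 12192, chromosome 12, 80107760 to 80113013, minus strand), had 1 peak in each of 2 mice. The one in lean mouse 1 covered bases 1 to 74 (fold 4.78) and the one in db/db mouse 1 bases 2466 to 2683 (fold 10.2), so that no region was shared.

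Gadd45g, a stress sensor that activates kinases upstream of p38 and JNK (gene ID 23882, chromosome 13, 51846675 to 51848475, plus strand), was marked at both ends. The start region, chr13:51846675-51846822, had a fold of 13.6, 16.2 and 21.7 in db/db mice 1, 3 and 4 and of 13.7, 16.2, 34.7 and 7.84 in lean mice 1 to 4. Only db/db mouse 2 lacked it. Its peaks began between bases 1 and 4 and were 55 to 145 bases long. The end region, chr13:51847928-51848474, ran to within 1 base of the annotated end. It was seen in all mice but lean mouse 4, as a peak of 505 bases in lean mouse 1 and as a pair of peaks in db/db mice 1 and 3 and lean mouse 2. The highest fold per mouse there was 15.7, 7.46, 9.94 and 14.7 in db/db mice 1 to 4 and 10.3, 13.0 and 8.52 in lean mice 1 to 3.

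Ddit4, also called REDD1, an inhibitor of mTORC1 induced by stress and low oxygen (gene ID 74747, chromosome 10, 59949675 to 59951770, minus strand), had a peak at bases 204 to 362 in db/db mouse 1 (fold 9.01) and at bases 1279 to 1367 in db/db mouse 4 (fold 8.92). The peaks of Junb, Zfp36l1 and Ddit4 all came from db/db mouse 1, db/db mouse 4 and lean mouse 1, which are the mice with the 3 longest lists (4807, 4251 and 4394 peaks). None of the 5 was left with every list cut to its 2475 peaks of highest fold. By score, only the Zfp36l1 peak of db/db mouse 1 was left at a p-value of at most 1e-10. Its score was 243, at the 90.2nd percentile of its list. The part of list length in these peaks was not tested.

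**Figure D3:**
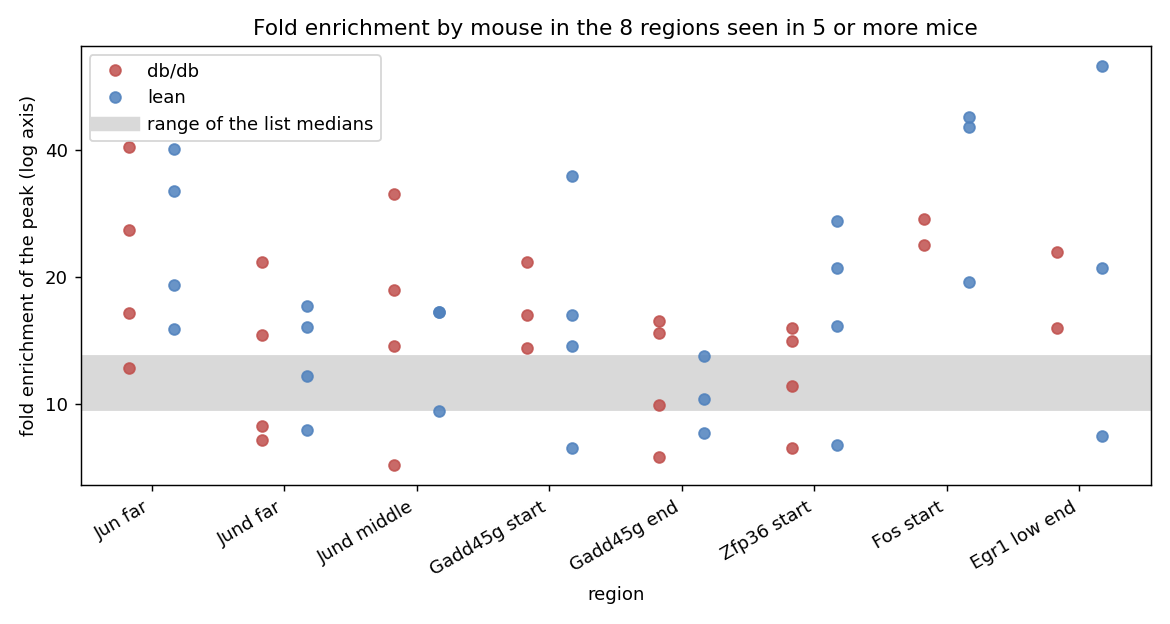
Fold enrichment on a log axis in the 8 regions of the set seen in 5 or more mice, 1 point per mouse with a peak (the highest where a mouse has a pair), db/db in red and lean in blue, with the range of the list medians, 9.69 to 13.0, in grey. Each fold is relative to its own list, and the Fos start is the only one of these regions with every point, 19.4 to 48.0, above the grey band.

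Peaks at annotated starts were more frequent in these genes than in the lists at large. The 50 transcribed bases that follow each start in the RefSeq promoter table were used, which covers 8 of the 10 members, all but Egr1 and Ier2. Of their 68 peaks 24, or 35.3%, overlapped those bases, against 3044 of 21479 peaks, or 14.2%, over the 6375 genes with a start in the table. The share in all genes was 8.70%, 14.5%, 14.1% and 13.1% in db/db mice 1 to 4 and 14.4%, 19.8%, 14.0% and 18.6% in lean mice 1 to 4. For the members it was 16.7%, 42.9%, 20% and 33.3% in db/db mice and 50%, 40%, 40% and 57.1% in lean mice. The members' share was above that of all genes in each of the 8 mice, but rests on 2 to 4 peaks a mouse, most of them of Zfp36, Gadd45g and Fos. By gene, 5 of the 8 members had such a peak in at least 1 mouse, against 23.5% of the 6375 genes, and 3 in 5 or more mice, against 2.29%. Since the members were chosen with these peaks in view, the shares describe the set.

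**Figure D4:**
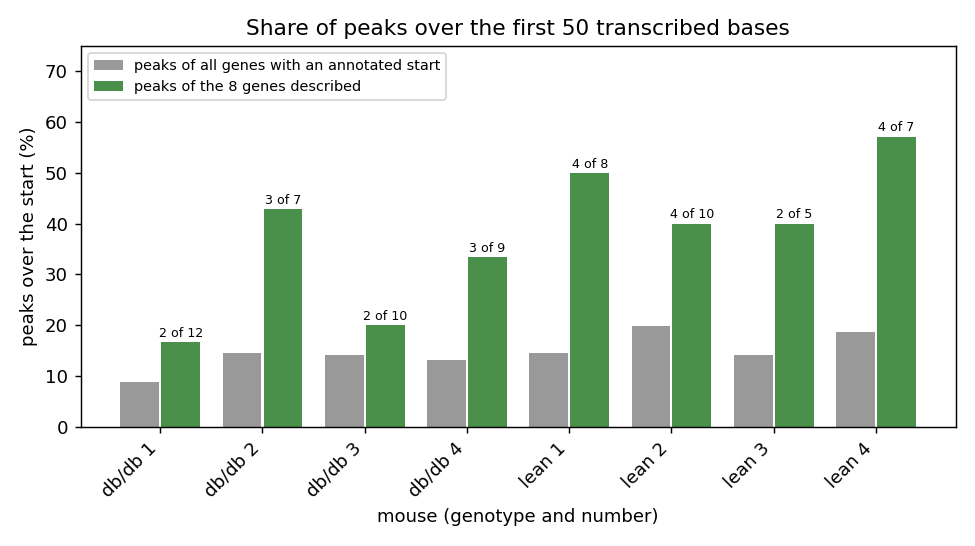
Share of peaks (%) overlapping the first 50 transcribed bases of an annotated start in each mouse, for all genes with a start in the RefSeq table (grey) and for the 8 members among them (green, with the number of peaks above the bar). The green bar is the taller in every mouse, from 16.7% in db/db mouse 1 to 57.1% in lean mouse 4.

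The bases under the start peaks are shown for the 5 members that had one, as read from the RefSeq table (GRCm38.p6) on the strand of the gene, 5′ to 3′. Capitals mark GGAC, the core of the sequence context that the m6A writer prefers. Of the 3 Jun start peaks, that of lean mouse 4 began at base 25, past the GGAC marked in Jun.
Fos, bases 1 to 30 (chr12:85473890-85473919): aaccgcgactgcagcgagcaactgagaaga
Zfp36, bases 1 to 30 (chr7:28379199-28379228): cggtctcttcaccaaggccattcgcgccac
Gadd45g, bases 21 to 50 (chr13:51846695-51846724): gcgcgcatcGGACtctgggaatctttacct
Jun, bases 1 to 30 (chr4:95052193-95052222): gttgagctcaggctggataaGGACtcagag
Zfp36l1, bases 21 to 50 (chr12:80112964-80112993): gggcgccgggagcaggcgtgtgGGACtcct
Within the 50 bases, GGAC was found on the strand of the gene at base 30 of Gadd45g, 21 of Jun and 43 of Zfp36l1. It was also found at base 33 of Junb, which had no start peak. It was not found in this window of Fos, Zfp36, Jund or Ddit4. The 4 letters occurred in this strand in 18.9% of the 32851 starts in the table, and in the opposite strand in 17.4% of them and in 1 of the 8 members, Ddit4. Fos was the only one of the 8 whose annotated first base is A, as in 34.4% of all starts. The Zfp36 start peaks reached 27 bases before the annotated start. Its first letter and its window therefore do not describe that part of the peaks. In Zfp36 the first ATG of the window stood at base 32, inside all 8 of its start peaks.

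Other genes of the same response were followed through 105 genes in 5 lists, also drawn up with earlier results known, of which 69 had a peak in at least 1 mouse. Per mouse, 24.8% to 35.2% of them had a peak in db/db and 22.9% to 36.2% in lean mice, with means of 29.5% ± 5.55 and 27.4% ± 5.99 (SD, n = 4 each). A peak was seen in more db/db mice for 23 genes, in more lean mice for 19 and in as many of each for 27. Of all 8284 genes, 45.3% were seen in more db/db mice, 32.3% in more lean mice and 22.5% in as many of each. Fisher's exact test adjusted over all genes could not call any listed gene, since its smallest p, 0.0286, was reached by 28 of 8284 genes. The median gene with a peak was seen in 3 mice, against 2 over all genes. Of the 69 listed genes with a peak, 17 were seen in 6 or more mice, against 10.7% of all genes.

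Among the 39 other immediate early genes, 26 had a peak and 7 had one in 6 or more mice. Dusp1, a phosphatase that switches off MAP kinases, Rhob, a small GTPase, and Ier5 had a peak in all 8 mice, with median folds of 15.0, 48.4 and 36.4. Klf2, a transcription factor, Plk2, a kinase, and Id3, an inhibitor of basic helix-loop-helix factors, each had one in 3 db/db and 4 lean mice. Sik1, a salt-inducible kinase, had one in 4 db/db and 2 lean mice. Id1, a relative of Id3, had one in 1 db/db and 4 lean mice, all in 1 region. A difference of at least 3 mice towards lean was found in 1.1% of all genes.

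Start peaks recurred in several of these genes. A peak over an annotated start was seen in 8 mice for Dusp1 and Rhob, in 7 for Ier5 and Id3, in 6 for Plk2 and, among the stress-induced genes, in 7 for Ppp1r15a, which restores translation after stress. These 6 of 55 listed genes with a peak and an annotated start reached 5 or more mice, against 2.29% of all such genes. None of the 7 listed AP-1 relatives with a peak and a start, and none of the 4 mRNA decay genes, had a start peak in any mouse.

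Among the 20 AP-1 and related factors, 11 had a peak. Maf, a bZIP transcription factor, had one in all 8 mice. Of the 17 stress-induced genes 10 had a peak, and besides Ppp1r15a these included Hspa1a, an inducible heat shock protein, in 4 db/db and 3 lean mice, and Sesn2, a sestrin, in 3 of each. Of the 10 mRNA decay genes 7 had a peak, with Zfp36l2, the third gene of the Zfp36 family described here, in all 8 mice and 1 region shared by all 8, and the deadenylase subunit Cnot8 in 3 of each.

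Of the 19 upstream kinases and factors, 15 had a peak. Mapk8, which encodes the kinase JNK1 that phosphorylates c-Jun, had one in 3 mice of each genotype, Map3k1 in 4 db/db and 2 lean mice, and Mkl1, a coactivator of serum response factor, in 3 db/db and 4 lean mice. Map2k4, a kinase that activates JNK, was listed for each of the 4 lean mice and for 0 db/db mice, but no region of it was seen in more than 1 mouse. Rps6ka1, a kinase downstream of ERK, was listed for 3 db/db and 0 lean mice, again with no region in more than 1 mouse. A difference of at least 3 mice towards db/db was found in 2.44% of all genes.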

How the data were processed

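Peak lists of 8 immunoprecipitated libraries were used, 1 per mouse and not pooled, assigned by the sheet name in the library title. Per the submitters' processing notes, cutadapt 1.9.3, HISAT2 2.0.4 and mm10 were used, and the peak names in the files carry the word MACS. No source used here gave the caller's version, its filters or how it used the inputs, and the 8 input libraries were not analysed here. The authors deposited a fold enrichment (a ratio), a score of -10 times the log10 of the p-value (lowest 50, a p-value of 1e-05) and the length of each peak in bases, an other value. Peak numbers ran to between 8812 and 14581, above the 2475 to 4807 peaks listed per mouse.

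The members and lists were chosen with earlier results of these data known. Starts were counted from 1. Regions, presence per gene and positions were computed with pandas 2.3.3, and Fisher's exact test of presence with scipy 1.17.1 over 8284 genes. Labels mark the mice as separate samples. All 10 members matched RefSeq by symbol and 8 the promoter table. Pathway genes were named when seen in 6 or more mice, or when the genotypes differed by 3 or more mice, and 1 gene under this rule is not reported here. The functions for regions and for Fisher's test were tested on simulated data. Alternatives were a fold of at least 4.7, a p-value of at most 1e-10, lists of equal length (the 2475 peaks of highest fold), an overlap of 50% of the shorter peak, leaving out each mouse, and a replicate block.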

Additional observations from a re-analysis of the deposited data

Results flagged for a closer look

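In the end region of Gadd45g, the highest score per mouse was 64.0 in db/db mouse 2, against 444 to 509 in the other db/db mice, and this value stood far from the rest of its group of 4. Of these mice, db/db mice 1 and 3 had a second peak in the region, with scores of 54.4 and 239.7. Scores come from separate lists and are set side by side as a description. The list of db/db mouse 2 was the shortest of the db/db lists, with 2831 peaks. In all, 35 groups of 4 mice were examined for such a value and 1 was found, where chance gives about 1 in 20.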

How the results depend on the processing

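Depth was unknown, and a list shows called peaks alone, so that an absent peak sets no limit on methylation. The difference in members with a peak per mouse (db/db minus lean) was 1, and 0.333 to 1.33 when each mouse was left out. It fell to 0 at a p-value of at most 1e-10 and to 0.25 with lists of equal length. For member peaks per mouse it was 3.25, 2 to 4 without each mouse, 1.5 at that stricter p-value and 0.75 with lists of equal length. Regions of members in 2 or more mice numbered 12, and 11 to 12 without each mouse. Such regions numbered 9 at a p-value of at most 1e-10 and 10 when the lists were cut to the same length. The difference for the 105 listed genes was 2.14 percentage points, 0.238 to 5.08 without each mouse, and turned to -0.238 with lists of equal length. The share of member peaks over a start was 35.3%, 32.8% to 39.3% without each mouse, and 25% when the first base alone counted, settings chosen after seeing the data. Genes that split fully by genotype numbered 17 for db/db and 11 for lean, 3 and 7 at a p-value of at most 1e-10, 11 and 19 with equal lists, and 27 to 60 and 14 to 31 without each mouse, where fewer mice have to match. Of 110 genotype differences in presence of single members, 106 moved by less than the spread between mice and 4 did not. That spread was 35.4 to 54.0 percentage points for the members not seen in all 8 mice. A member could lose every peak and still count among the 106, so this count is no measure of stability. The 4 were Ddit4 (none) with equal lists and, at a p-value of at most 1e-10, Zfp36 (4 db/db and 3 lean mice), Ier2 (none) and Ddit4 (none). Presence itself fell further at that p-value, for Egr1 from 6 to 3 mice, Gadd45g from 8 to 6, Zfp36l1 from 2 to 1 and Junb from 1 to 0, and with equal lists for Ier2 from 4 to 2, Zfp36l1 from 2 to 0 and Junb from 1 to 0. Mice that share a number did not deviate together (correlations of -0.0280 to 0.00877), and with the number as a replicate block 0 genes passed and none could, with 0 at an unadjusted p under 0.05 and a smallest p of 0.125.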
